A study of Mus musculus with 16 samples.

Results

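The IFIT family (interferon-induced proteins with tetratricopeptide repeats) was followed in mouse bone marrow derived macrophages (BMDMs) through 5 genes, Ifit1, Ifit2, Ifit3, Ifit3b and Ifit1bl1. They were taken by symbol from a table of 22287 genes. All 5 were present and all 5 passed the filter on low counts that left 12514 genes for testing. Bone marrow of C57BL/6J mice aged 8 weeks was grown over 7 days in GM-CSF at 20 ng/ml, giving GM cells, or in M-CSF at 50 ng/ml, giving M cells. The dishes were either treated to promote attachment (TC) or untreated (noTC). Cells then received vehicle (steady state) or 100 ng/ml of lipopolysaccharide (LPS), a bacterial cell wall component, for 3 h, and RNA-seq was made of 2 libraries in each of the 8 groups. A group is named by growth factor and dish, as in GM-noTC, with LPS added where it was given. The authors call the 2 libraries of a group biological replicates. The sources used here do not say whether they came from separate mice, so p-values measure the spread between libraries. As these are bulk samples of cultured cells, fewer cells expressing a gene and less RNA per cell cannot be told apart.

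IFIT proteins are cytoplasmic antiviral effectors that carry tandem tetratricopeptide repeats and are classic products of type I interferon signalling. IFIT1 proteins bind viral RNA whose cap lacks the methyl mark of host mRNA and block its translation, and human IFIT2 and IFIT3 are binding partners in the same complexes. In macrophages, LPS acts on the receptor TLR4, which through the adaptor TRIF and the kinase TBK1 activates the transcription factor IRF3. IRF3 induces interferon beta, encoded by Ifnb1, and can also act on some IFIT genes directly. Secreted interferon then signals through JAK1 and TYK2 to a complex that includes STAT2 and IRF9 and binds interferon-stimulated response elements in promoters.

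The members lie side by side on chromosome 19. By Ensembl identifier, the GENCODE annotation of GRCm38 places the protein-coding genes Ifit2 (ENSMUSG00000045932) at chr19:34550694-34576419, Ifit3 (ENSMUSG00000074896) at chr19:34583531-34588731, Ifit3b (ENSMUSG00000062488) at chr19:34607970-34613401 and Ifit1 (ENSMUSG00000034459) at chr19:34640871-34650009, all on the plus strand. Ifit1bl1 (ENSMUSG00000079339), a paralogue of Ifit1, is on the minus strand at chr19:34592891-34601956. No other annotated gene overlaps any of the 5. Ifit1bl2, a further IFIT gene that is no member here, lies on the minus strand and starts back to back with Ifit1, with 127 bases between the 2 starts.

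The sequence before the gene starts is shown because the members moved together and because response elements are the known route from interferon to these genes. RefSeq promoter windows of 300 bases, which run from 250 bases before a start to 50 after it, were found for all 5 members on GRCm38.p6. They were searched on both strands for the core of an interferon-stimulated response element, written as 2 copies of GAAA with any 2 bases between them. Ifit1, Ifit3 and Ifit3b each held 2 matches, and Ifit1bl1 held 1 in each of its 2 windows. Ifit2 held none in its 2 windows, which says only that these letters are not there. Of all 32851 windows, 3.44% held a match and 0.225% held at least 2. Of the other antiviral effectors listed further on, 20 had a window and 11 of them held a response element match. Counted by gene in the same way, 3.99% of all 27025 genes with a window held a match. The stretches printed here end before the first transcribed base in both annotations and run 5′ to 3′ on the strand of the gene. They are chr19:34640744-34640870 for Ifit1, chr19:34583329-34583528 for Ifit3 and chr19:34607757-34607956 for Ifit3b on the plus strand, and chr19:34601969-34602168 for Ifit1bl1 on the minus strand. Capitals mark the fixed letters of each match, which stand here as TTTC because every match lies on the opposite strand.
Ifit1: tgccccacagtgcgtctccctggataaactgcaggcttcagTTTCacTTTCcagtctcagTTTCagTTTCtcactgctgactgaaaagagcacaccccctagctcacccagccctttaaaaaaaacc
Ifit3: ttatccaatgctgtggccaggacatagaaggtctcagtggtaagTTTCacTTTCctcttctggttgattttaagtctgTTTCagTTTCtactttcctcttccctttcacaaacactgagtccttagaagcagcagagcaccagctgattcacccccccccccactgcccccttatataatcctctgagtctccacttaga
Ifit3b: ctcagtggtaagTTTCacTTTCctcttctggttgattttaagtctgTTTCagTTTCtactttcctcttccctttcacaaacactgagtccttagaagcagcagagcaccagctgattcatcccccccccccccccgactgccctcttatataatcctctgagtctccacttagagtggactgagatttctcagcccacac
Ifit1bl1: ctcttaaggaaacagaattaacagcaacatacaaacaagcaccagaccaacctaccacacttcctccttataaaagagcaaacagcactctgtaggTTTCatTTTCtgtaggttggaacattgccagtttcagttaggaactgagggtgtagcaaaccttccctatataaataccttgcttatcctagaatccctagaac
The Ifit3 and Ifit3b stretches were identical at 167 of 168 aligned bases, and 6 further bases lay opposite gaps within the overlap. The Ifit1 stretch is the whole space between Ifit1 and Ifit1bl2, so that both its matches also lie before the start of Ifit1bl2. That neighbour reached at most 3.92 ± 0.458 counts per 1000000 (SD, n = 2) in any group, while the LPS groups of Ifit1 reached 3666 ± 134 or more.

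The close relation of Ifit3 and Ifit3b also bears on how their reads were counted. The longest annotated transcripts of this pair were identical at 98.0% of 1697 aligned bases and shared an unbroken run of 329 bases. The deposited expected counts of both were not whole in 16 of 16 libraries, whereas those of Ifit1, Ifit2 and Ifit1bl1 were whole within 0.02 in all 16. The division of reads between Ifit3 and Ifit3b is therefore an estimate, and Ifit3b took 8.11% to 19.8% of the pair's counts. Ifit1bl1 and Ifit1bl2 transcripts were 91.1% identical over 2161 aligned bases, with a longest shared run of 110 bases.

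Total counts per library lay between 17527802 and 31458363, at which 3 counts equal 0.0954 to 0.171 counts per 1000000 (CPM, here by library size). A list of 8 macrophage markers summed to 19543 to 45588 CPM per library. Most of this was Lyz2, with group means from 13279 CPM in M-noTC-LPS to 39700 CPM in GM-TC. Adgre1, Csf1r, Cd68, Fcgr1 and Cd14 had higher means in M than in GM in each dish and state. Lyz2, Itgam and Mertk had higher means in GM. The lowest group mean of the list was that of Mertk in M-noTC, at 29.5 CPM. A list of 6 dendritic cell markers summed to 51.1 to 66.9 CPM in GM libraries and 1.16 to 3.63 CPM in M libraries. A list of 6 neutrophil markers summed to 8.61 to 18.1 CPM in GM and at most 0.432 CPM in M, where 3 or 4 of its genes were at 0. Plasmacytoid dendritic cell markers, which include macrophage-expressed Irf8 and Bst2, summed to 144 to 261 CPM in GM and 308 to 655 CPM in M. Heart muscle markers summed to 27.5 to 93.6 CPM in the 4 TC libraries without LPS and to at most 1.32 CPM elsewhere. Lists for B cells, T and NK cells, and fibroblasts and stroma summed to at most 1.08, 1.79 and 13.4 CPM. The part of these other cell types in the IFIT values was not tested, and growth factor and the makeup of the culture cannot be told apart.

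Levels of each member are given as counts per 1000000 scaled by edgeR's TMM factors (CPM). Ifit1, the RNA sensor of the family, stood at 5.0 and 5.11 CPM in the 2 GM-TC libraries, 21.5 and 22.0 for GM-noTC, 96.2 and 98.8 for M-TC, and 89.9 and 95.1 for M-noTC. With LPS it reached 3720 and 3779 CPM for GM-TC-LPS, 3571 and 3761 for GM-noTC-LPS, 4310 and 4496 for M-TC-LPS, and 4436 and 4394 for M-noTC-LPS. All 8 LPS libraries lay far above all 8 vehicle libraries, the M groups lay above the GM groups in both states, and the 2 dishes overlapped after LPS in GM and in M.

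Ifit2, which restricts several RNA viruses in mice, was measured at 9.64 and 7.61 CPM for GM-TC, 22.2 and 24.6 for GM-noTC, 205 and 226 for M-TC, and 186 and 193 for M-noTC. Upon LPS challenge its level was 2545 and 2664 CPM for GM-TC-LPS, 2347 and 2275 for GM-noTC-LPS, 4662 and 5375 for M-TC-LPS, and 5394 and 5553 for M-noTC-LPS. Every M library lay above every GM library of the same state, and the 2 dishes overlapped in neither cell type at either state. The dish difference after LPS nevertheless did not pass the test in GM (adjusted p = 0.21, edgeR) or in M (adjusted p = 0.18). Separation of 2 against 2 libraries alone has a two-sided exact permutation p of 0.333, here and wherever libraries are said not to overlap.

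Ifit3, a further repeat protein of the family, had 2.07 and 2.46 CPM for GM-TC, 5.91 and 5.91 for GM-noTC, 83.2 and 89.8 for M-TC, and 82.5 and 83.3 for M-noTC. After LPS the values were 397 and 402 CPM for GM-TC-LPS, 396 and 395 for GM-noTC-LPS, 1092 and 1220 for M-TC-LPS, and 1299 and 1357 for M-noTC-LPS. The 4 GM libraries with LPS lay close together, between 395 and 402 CPM, and every M library with LPS lay above them. At steady state, the M-TC library at 83.2 CPM overlapped the M-noTC libraries.

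Ifit3b, the near copy of Ifit3, rested on 4 and 5 counts in GM-TC, or 0.202 and 0.201 CPM. It stood at 0.856 and 1.11 CPM for GM-noTC, 17.4 and 17.3 for M-TC, and 14.1 and 12.8 for M-noTC. With LPS it had 84.3 and 89.2 CPM for GM-TC-LPS, 92.5 and 97.7 for GM-noTC-LPS, 207 and 237 for M-TC-LPS, and 277 and 292 for M-noTC-LPS. The order of its groups followed that of Ifit3 except between the 2 GM groups with LPS.

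Ifit1bl1 had 0.505 and 0.362 CPM for GM-TC (10 and 9 counts), 1.31 and 1.48 for GM-noTC, 6.62 and 7.78 for M-TC, and 5.22 and 6.13 for M-noTC. Its values after LPS were 152 and 170 CPM for GM-TC-LPS, 231 and 227 for GM-noTC-LPS, 196 and 231 for M-TC-LPS, and 377 and 354 for M-noTC-LPS. It was the only member for which a GM group, GM-noTC-LPS, had a higher mean than an M group with LPS, M-TC-LPS, although the 2 groups overlapped and were not tested against each other.

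**Figure D1:**
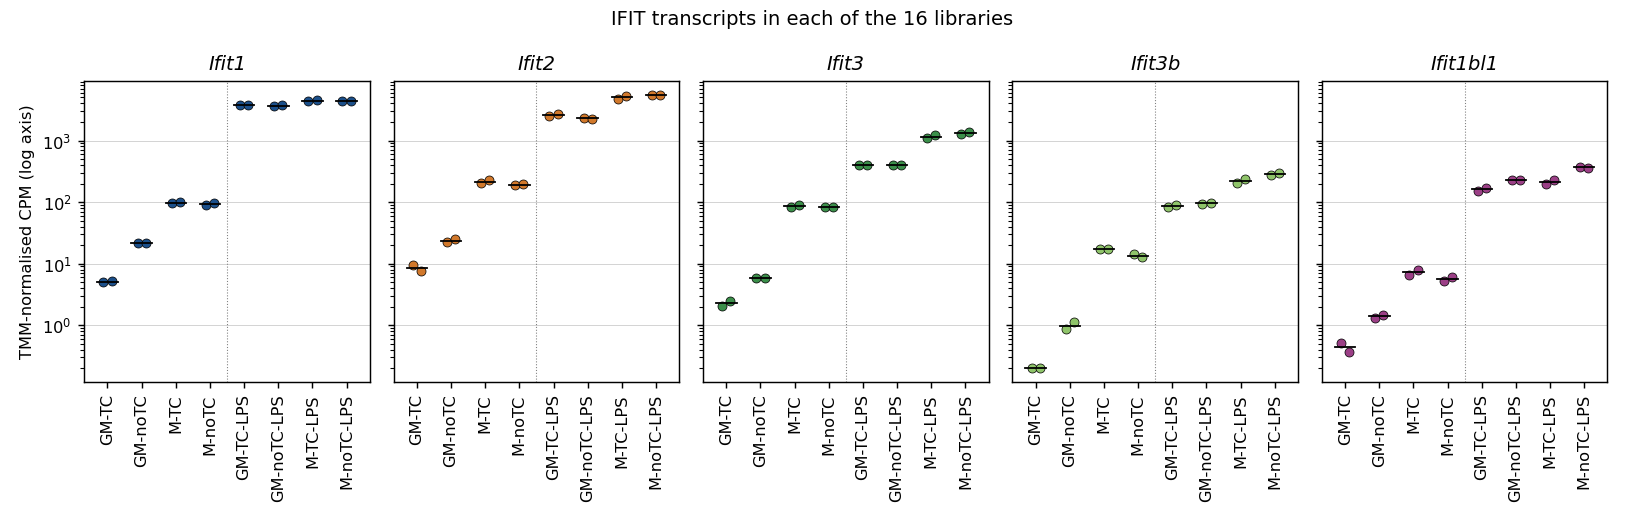
TMM-normalised CPM on a log axis (vertical) in the 8 groups (horizontal), 1 panel for each IFIT gene, with points for the 2 libraries of a group and a line at their mean. GM-TC is lowest in every panel, and the 4 LPS groups to the right of the dotted line lie above the 4 vehicle groups.

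Compared per kilobase of exon, which sets genes of unlike length side by side, Ifit1 led in GM-TC-LPS at 1412 ± 15.7 CPM per kb (SD, n = 2), followed by Ifit2 at 663 ± 21.5, Ifit3 at 229 ± 2.17, Ifit1bl1 at 71.1 ± 5.58 and Ifit3b at 43.4 ± 1.72. In M-TC the order was different, with Ifit2 at 54.9 ± 3.78 CPM per kb, Ifit3 at 49.6 ± 2.70, Ifit1 at 36.7 ± 0.705, Ifit3b at 8.66 ± 0.0228 and Ifit1bl1 at 3.19 ± 0.363. The levels of Ifit2 and Ifit3 in M-TC differed by less than the sum of their SDs, and Ifit1 had no SD range in common with either. As a share of all 5, Ifit1 held 53.2% to 55.7% of the family's counts in the GM libraries with LPS and 36.8% to 41.2% in the M libraries with LPS. Ifit3 held 5.66% to 5.97% in GM and 10.4% to 11.4% in M, and these ranges did not overlap. Together the 5 genes took 0.00175% of all counts in a GM-TC library and 0.991% in an M-noTC-LPS library.

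The first question of the design is how each kind of macrophage answered LPS. All 5 members rose in all 4 cultures, with no overlap between vehicle and LPS libraries. The background is high here, since the share of all tested genes called higher was 32.8% for GM-TC, 33.6% for GM-noTC, 37.6% for M-TC and 36.4% for M-noTC (BH-adjusted p under 0.05, edgeR's quasi-likelihood test). In GM-TC cells, Ifit1 rose 739.9-fold (log2 fold change 9.53 ± 0.07 SE), Ifit3b by 8.71 ± 0.16 on the log2 scale, Ifit1bl1 by 8.54 ± 0.16, Ifit2 by 8.25 ± 0.10 and Ifit3 by 7.45 ± 0.09. The largest adjusted p of the 5 was 1.1e-21. The folds of Ifit3b and Ifit1bl1 against GM-TC rest on 4 to 10 counts in each GM-TC library and are imprecise, here and in the comparisons that follow. The SE is derived from the test statistic and understates counting error where a large fold rests on low counts. For Ifit3b it is 0.16 here but 0.42 for GM-noTC against GM-TC, with the same GM-TC counts. The 2 GM-TC libraries also differed more over all genes than those of any other group, with a chi-square per degree of freedom of 12.4 against 1.90 to 5.11. In GM-noTC cells the log2 fold changes were 7.40 ± 0.06 for Ifit1, 7.35 ± 0.13 for Ifit1bl1, 6.62 ± 0.09 for Ifit2, 6.58 ± 0.12 for Ifit3b and 6.06 ± 0.08 for Ifit3. With a small share of the other libraries subtracted from GM-noTC, as described with the dish comparison, these became 9.22 for Ifit1, 8.92 for Ifit1bl1, 8.10 for Ifit2, 8.23 for Ifit3b and 7.22 for Ifit3. The subtraction left 4 and 12 counts for Ifit3b and 9 and 15 for Ifit1bl1 in the GM-noTC libraries. Their folds after it are therefore imprecise, here and in the comparisons that follow. The changes in M cells were smaller on this scale, although the levels reached were higher. In M-TC cells Ifit1 rose 45.2-fold (5.50 ± 0.05), Ifit1bl1 by 4.89 ± 0.10, Ifit2 by 4.54 ± 0.08, Ifit3 by 3.74 ± 0.06 and Ifit3b by 3.68 ± 0.08. M-noTC cells showed 5.99 ± 0.10 for Ifit1bl1, 5.58 ± 0.05 for Ifit1, 4.85 ± 0.08 for Ifit2, 4.41 ± 0.08 for Ifit3b and 4.0 ± 0.06 for Ifit3. Ifit3 had the smallest LPS change of the members in 3 cultures and Ifit3b, at 3.68, in M-TC. Ifit1bl2, which is no member, also passed in all 4 cultures. It had 1 to 21 counts in the vehicle libraries, at or under 3 in some of them, and no fold is given.

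**Figure D2:**
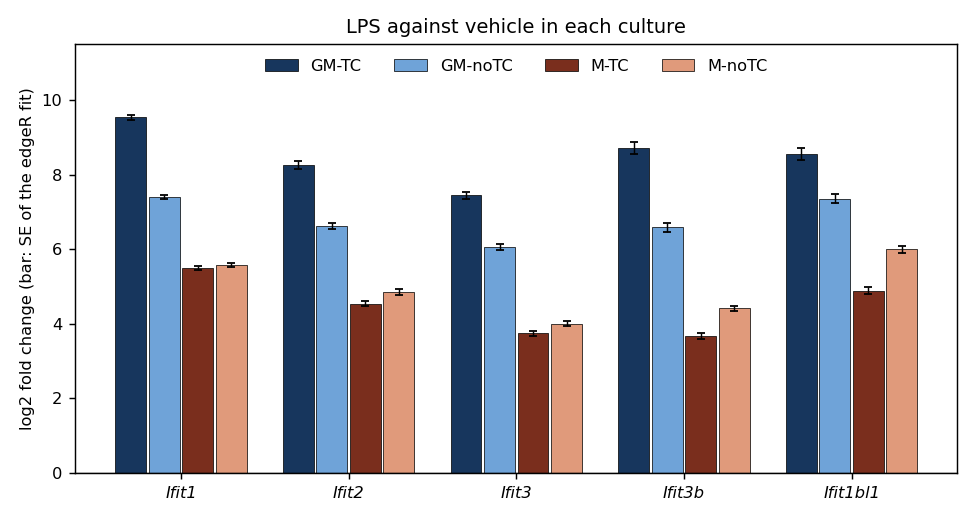
Log2 fold change of each IFIT gene (horizontal) for LPS against vehicle (vertical), 1 bar for each of the 4 cultures. Error bars are an SE derived from the edgeR test statistic, too narrow where a large fold rests on low counts. Every bar is above 3, and for every gene GM-TC is highest, at 7.45 to 9.53.

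The difference between the GM and M responses to LPS was tested as an interaction. On TC dishes, the log2 response was larger in GM than in M by 4.03 ± 0.09 for Ifit1, 3.71 ± 0.12 for Ifit2, 3.71 ± 0.12 for Ifit3, 5.03 ± 0.27 for Ifit3b and 3.66 ± 0.28 for Ifit1bl1. All 5 passed, against 17.8% of all genes with a larger response in GM. On noTC dishes the same differences were 1.82 ± 0.07, 1.77 ± 0.10, 2.06 ± 0.10, 2.17 ± 0.19 and 1.36 ± 0.21 in that order, again 5 of 5 against 16.9% of genes. The largest adjusted p among these 10 tests was 1.9e-05, for Ifit1bl1 on noTC dishes (edgeR). The same subtraction moved the noTC values to 3.46 for Ifit1, 3.16 for Ifit2, 3.18 for Ifit3, 3.77 for Ifit3b and 2.75 for Ifit1bl1.

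The second question is how GM and M cells differed at a given state. All 5 members were lower in GM than in M in every state. At steady state on TC dishes, Ifit1 was 19.2-fold lower in GM (log2 difference -4.27 ± 0.07), Ifit2 25.2-fold lower (-4.66 ± 0.09), Ifit3 37.8-fold lower (-5.24 ± 0.10), Ifit3b 83.7-fold lower (-6.39 ± 0.21) and Ifit1bl1 16.8-fold lower (-4.07 ± 0.26), when 28.9% of all genes were called lower. On noTC dishes the steady state differences were -2.09 ± 0.05 for Ifit1, -3.02 ± 0.08 for Ifit2, -3.81 ± 0.08 for Ifit3, -3.75 ± 0.15 for Ifit3b and -2.04 ± 0.19 for Ifit1bl1, with 30.7% of genes called lower. After the subtraction they lay between -5.35 for Ifit3b and -3.42 for Ifit1bl1, with Ifit1 at -3.73. After LPS the distance between GM and M was smaller for every member, as the interaction above gives, and it was least for Ifit1. Ifit1 was 1.17-fold lower in GM-TC-LPS than in M-TC-LPS (-0.23 ± 0.04, adjusted p = 9.5e-05, edgeR) and 1.20-fold lower on noTC dishes (-0.27 ± 0.04, adjusted p = 1.6e-05). Ifit1bl1 followed with -0.41 ± 0.07 on TC and -0.68 ± 0.07 on noTC dishes. Ifit2 differed by -0.95 ± 0.07 and -1.24 ± 0.07, Ifit3b by -1.35 ± 0.07 and -1.58 ± 0.07, and Ifit3 by -1.53 ± 0.06 and -1.75 ± 0.06. All genes called lower in GM made up 32.9% on TC and 32.6% on noTC dishes after LPS. As the marker sums given above show, dendritic cell and neutrophil markers were higher in the same GM libraries, and their part in these differences was not tested.

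**Figure D3:**
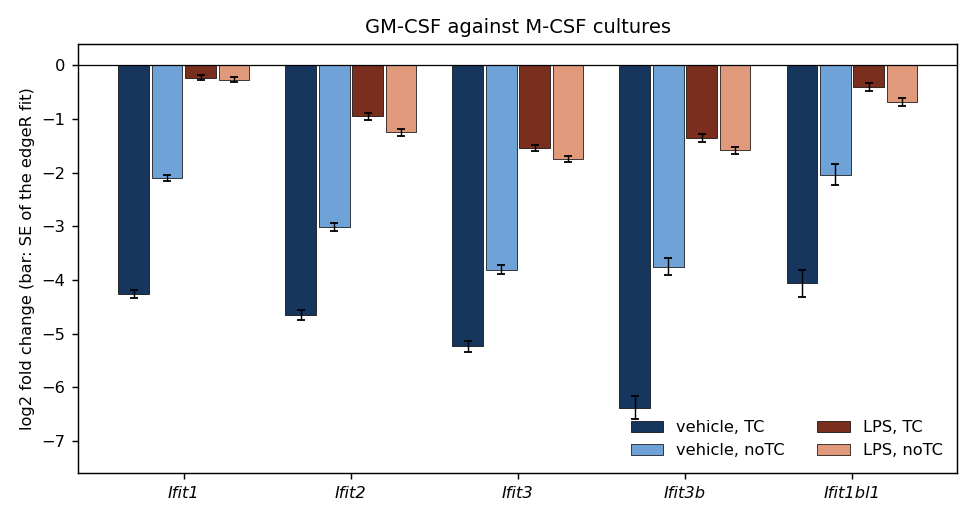
Log2 fold change of each IFIT gene (horizontal) in GM against M cells (vertical), 1 bar for each state and dish. Error bars are an SE derived from the edgeR test statistic, too narrow where a large fold rests on low counts. All bars are below 0, from -6.39 for Ifit3b at steady state on TC dishes to -0.23 for Ifit1 after LPS on TC dishes.

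The dish surface was the third factor. In GM cells at steady state, all 5 members were higher on noTC than on TC dishes, from low levels and without overlap. Ifit1 was 4.29-fold higher (log2 difference 2.10 ± 0.08, adjusted p = 8.2e-14, edgeR), Ifit3b 4.80-fold (2.26 ± 0.42, adjusted p = 0.0012), Ifit1bl1 3.25-fold (1.70 ± 0.37, adjusted p = 0.0053), Ifit2 2.74-fold (1.46 ± 0.11) and Ifit3 2.59-fold (1.37 ± 0.14). Among all genes, 4.69% were called higher. Ifit3b and Ifit1bl1 rest on few reads, with 4 to 10 counts in the GM-TC libraries and 21 to 40 in GM-noTC. Without GM-TC replicate 2 or without GM-noTC replicate 2, Ifit1bl1 missed the threshold (adjusted p = 0.12 and 0.052) and 4 members were called.

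A further measurement stands beside this result. Among genes other than the IFIT genes, 13 were under 1 CPM in both GM-TC libraries and at 100 CPM or more on average over the 10 libraries that are neither TC steady state nor GM-noTC. The excess of GM-noTC over GM-TC in these 13 genes had a median of 0.668% of that average. For the members, the excess was 0.714% of the average for Ifit1, 0.659% for Ifit2, 0.748% for Ifit3, 0.767% for Ifit3b and 0.684% for Ifit1bl1, on CPM scaled by library size. Subtracting 0.668% of that average from the GM-noTC counts takes away most of such an excess by arithmetic. The outcome for the members was therefore largely fixed beforehand. With the fit repeated, 0 of the 5 were called by edgeR, beside 3.98% of all genes called higher, and 1, Ifit1, had an unadjusted p under 0.05. The log2 differences were then 0.28 for Ifit1 (adjusted p = 0.17), -0.01 for Ifit2 (0.98), 0.22 for Ifit3 (0.57), 0.62 for Ifit3b (0.62) and 0.14 for Ifit1bl1 (0.92). Among the 28 other antiviral genes measured, 6 were called higher and 1 lower in GM-noTC before the subtraction, and 1, Mx1, higher and 2 lower after it. The rule for the 13 genes left out only IFIT genes by name. Cxcl10 and Oasl1, among the 6, have levels that meet it (at most 0.685 and 0.656 CPM with TMM in GM-TC). The loss of their calls is therefore no separate result. All genes called lower were 2.85% before it and 2.76% after it. The source of this excess was not tested. Heart muscle markers, given above, were high in the TC libraries of this comparison and near the floor in the noTC libraries, and their part was not tested.

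**Figure D4:**
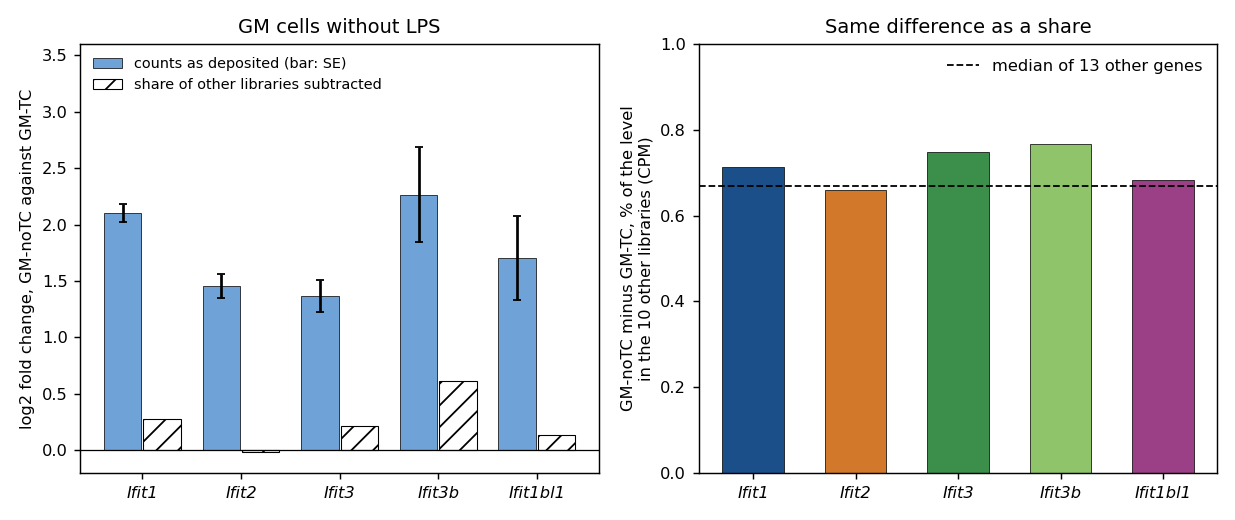
Left, log2 fold change of each IFIT gene in GM-noTC against GM-TC from the counts as deposited (filled, with SE) and after subtracting 0.668% of the other libraries (hatched). Right, the GM-noTC minus GM-TC difference as a percent of the mean of the 10 other libraries, where the 5 genes lie at 0.659% to 0.767% and the dashed line marks the median of 13 other genes at 0.668%.

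In M cells at steady state, no member was called higher on noTC dishes. Ifit3b was lower by the most (-0.37 ± 0.09 on the log2 scale, adjusted p = 0.0026, edgeR) and Ifit2 1.14-fold lower (-0.18 ± 0.07, adjusted p = 0.049), while 11.1% of all genes were called lower. Ifit1bl1 differed by -0.33 ± 0.13 (adjusted p = 0.068), Ifit1 by -0.07 ± 0.05 (95% interval -0.17 to 0.03) and Ifit3 by -0.06 ± 0.06 (95% interval -0.18 to 0.06). With Ifit3 and Ifit3b summed the difference was -0.11 (adjusted p = 0.18). Both calls were lost without M-noTC replicate 2. Without M-TC replicate 2 or M-noTC replicate 1, 1 call was left, that of Ifit3b. With 0.600% of the other libraries subtracted from M-noTC, a share taken in the same way from 19 genes, Ifit1 (-0.26, adjusted p = 0.00053) and Ifit1bl1 (-0.51, adjusted p = 0.0086) passed as well, beside 11.4% of all genes called lower. The subtraction takes counts from M-noTC and none from M-TC, so the direction of these added calls was fixed beforehand. The members' own M-noTC minus M-TC difference was negative, from -5.00% of the other libraries' mean for Ifit3b to -0.310% for Ifit1. In both GM and M, the share was taken from genes other than the IFIT genes. The difference between GM and M in their steady state dish effect was 2.17 ± 0.09 for Ifit1, 1.64 ± 0.13 for Ifit2, 1.43 ± 0.15 for Ifit3, 2.64 ± 0.42 for Ifit3b and 2.03 ± 0.39 for Ifit1bl1, with all 5 called against 4.82% of genes. After the subtraction 1 of these, Ifit1 at 0.54 (adjusted p = 0.0035, edgeR), was called, against 4.65% of genes. The fall in the GM part was likewise largely fixed beforehand.

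After LPS, no dish difference of Ifit1 was detectable. Its log2 difference between noTC and TC dishes was -0.03 ± 0.04 in GM cells (95% interval -0.12 to 0.06) and 0.00 ± 0.04 in M cells (95% interval -0.09 to 0.10). Ifit1bl1 was the member with the largest dish difference after LPS. It was 1.42-fold higher on noTC dishes in GM cells (0.51 ± 0.07, adjusted p = 0.00018, edgeR) and 1.71-fold higher in M cells (0.78 ± 0.07, adjusted p = 8e-08). It was the 1 member called higher in GM, where 2.08% of genes were, and in M it was joined by Ifit3b, 1.28-fold higher (0.36 ± 0.06, adjusted p = 0.00024), and Ifit3, 1.15-fold higher (0.20 ± 0.05, adjusted p = 0.0087), when 10.4% of genes were called higher. Ifit2 differed by 0.13 ± 0.07 in M (adjusted p = 0.18) and -0.17 ± 0.07 in GM (adjusted p = 0.21). Ifit3 and Ifit3b differed by -0.01 ± 0.05 and 0.13 ± 0.07 in GM, and neither passed. The call of Ifit3 in M was lost without M-TC-LPS replicate 1 (0.12, adjusted p = 0.17) or without M-noTC-LPS replicate 2 (0.17, adjusted p = 0.084), and without M-TC-LPS replicate 2 the call of Ifit2 was gained (0.23, adjusted p = 0.03).

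**Figure D5:**
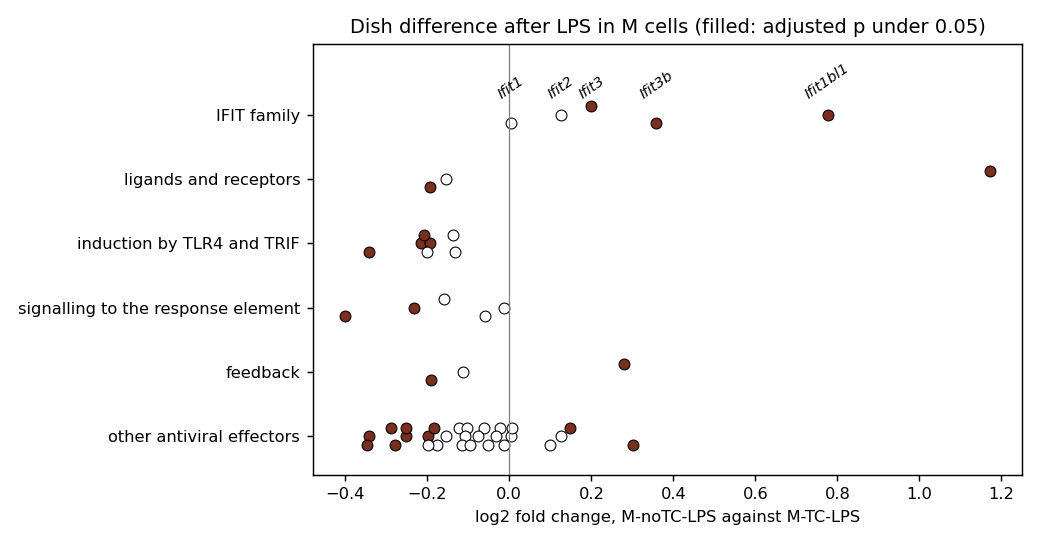
Log2 fold change in M-noTC-LPS against M-TC-LPS (horizontal) for the IFIT genes and for listed genes of the interferon pathway (rows), 1 point for each gene, filled where the edgeR adjusted p is under 0.05. The 5 IFIT genes lie at 0.00 to 0.78, while the filled points of the other antiviral effectors are 8 below 0 and 2 above with the TMM scaling shown, and 5 and 3 with library size alone.

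Whether the LPS response itself depended on the dish was tested in each kind of cell. In GM cells the log2 response was smaller on noTC dishes, with differences of -2.13 ± 0.09 for Ifit1, -1.63 ± 0.13 for Ifit2, -1.38 ± 0.15 for Ifit3 and -2.13 ± 0.43 for Ifit3b (adjusted p = 0.015, edgeR), in a comparison where 0.591% of genes were called lower. Ifit1bl1, at -1.19 ± 0.39, did not pass (adjusted p = 0.25). After the subtraction described above, 0 of the 5 were called by edgeR, and the differences lay between -0.48 for Ifit3b and 0.38 for Ifit1bl1 (1, Ifit1, with an unadjusted p under 0.05). As for the dish at steady state, this was largely fixed beforehand by the size of the share. Over all genes the calls also became fewer, with 0.0559% called lower and 0.0799% higher. In M cells the response was larger on noTC dishes by 1.11 ± 0.15 for Ifit1bl1 (adjusted p = 3.5e-05), 0.73 ± 0.11 for Ifit3b (adjusted p = 9.1e-05), 0.31 ± 0.09 for Ifit2 (adjusted p = 0.038) and 0.26 ± 0.08 for Ifit3 (adjusted p = 0.036), while 3.11% of genes were called higher. Ifit1 gave 0.08 ± 0.07 (adjusted p = 0.53), and 0.26 (adjusted p = 0.016) after the subtraction, which raises this difference by design. The calls of Ifit2 and Ifit3 in M were lost in 6 of the 8 fits that left out 1 of the 8 libraries, whereas Ifit3b and Ifit1bl1 passed in all 8. The dish difference after LPS was lower in GM than in M for Ifit2 (-0.30 ± 0.09, adjusted p = 0.043), with 3.71% of genes called lower. That call was lost in 7 of the 8 fits without 1 of the libraries and held without M-TC-LPS replicate 2, where 4 members were called.

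The other genes of the pathway were read from 5 lists. Ifnb1, the ligand, had at most 0.148 CPM in any vehicle library, too near the floor for a fold. With LPS it reached 6.80 ± 0.620 CPM in GM-TC-LPS (SD, n = 2), 9.09 ± 0.341 in GM-noTC-LPS, 6.71 ± 0.786 in M-TC-LPS and 15.1 ± 0.984 in M-noTC-LPS. It was higher on noTC dishes in M cells after LPS by 1.17 ± 0.18 (adjusted p = 6.3e-05, edgeR) and gave 0.42 ± 0.19 in GM cells (adjusted p = 0.32). The receptor chains Ifnar1 and Ifnar2 rose with LPS in all 4 cultures with TMM scaling. With library size alone both fell in M-TC and 1 of them, Ifnar1, in M-noTC. Of all 12514 genes, 8648 in M-TC and 8572 in M-noTC were called lower with that scaling. Ifna4 was at most 0.139 CPM in any library and was not tested. The 5 listed genes of signalling to the response element (Jak1, Tyk2, Stat2, Irf9 and Irf1) rose in all 4 cultures, and the median log2 change was 1.96 for GM-TC and 1.56 for M-TC, beside -0.05 and -0.01 over all genes tested. With library size alone as the scaling, 4 of the 5 were called higher in GM-TC, GM-noTC and M-TC, where 2149, 2053 and 2040 of 12514 genes were. Jak1 was not among the 4 in either GM culture.

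Among 7 genes of the induction route, 3 rose and 2 fell with LPS in GM-TC cells, when 32.8% of all genes were called higher and 34.2% lower. The kinase gene Ikbke rose by 1.99 ± 0.06, Tbk1 by 0.89 ± 0.06 and Irf7, which amplifies interferon production, by 5.93 ± 0.12. Tlr4, the LPS receptor, fell by 1.09 and Ticam2, an adaptor between TLR4 and TRIF, fell by 0.50. In M-TC cells 5 rose and 2 fell with TMM, when 37.6% of all genes were called higher and 36.4% lower. With library size alone 3 rose and 4 fell in all 4 cultures. In M-TC that scaling called 2040 of 12514 genes higher and 8648 lower. Irf7 rose by 3.58 ± 0.09 in M-TC with TMM. The feedback genes Usp18, Socs1 and Isg15, which dampen or modify the interferon response, rose in all 4 cultures. The 28 other antiviral effectors also rose in all 4, and their median was 3.82 on either dish in GM, 2.76 on TC in M and 2.66 on noTC in M. The response of 25 of these 28 was larger in GM than in M on TC dishes, and that of 1 was smaller.

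At steady state on TC dishes, all 28 antiviral effectors were lower in GM than in M, with a median of -1.92. Irf7 (-4.16 ± 0.13), Stat2 (-1.32 ± 0.06) and Irf9 (-1.29 ± 0.08) were lower too, the last 2 encoding parts of the complex that binds the response element. The other lists were mixed. Of 7 induction genes 2 were higher in GM and 3 lower, and of 5 signalling genes 1, Jak1 (0.39 ± 0.05), was higher and 3 lower. Of 3 feedback genes 1, Socs1 (2.43 ± 0.19), was higher and 2 lower. Over all genes 32.6% were called higher and 28.9% lower. For the dish in M cells after LPS, 8 of the 28 effectors were lower on noTC and 2 higher, Oasl1 by 0.30 ± 0.05 and Cmpk2 by 0.15 ± 0.05, and the median was -0.11. Over all genes 12.9% were called lower and 10.4% higher. The split was 10 lower and 1 higher, without Cmpk2, with DESeq2's size factors (median -0.13), when 1811 of 12514 genes were called lower and 1170 higher. With library size alone it was 5 lower and 3 higher (median -0.02), when 880 genes were called lower and 2102 higher. Mx1 (-0.28 ± 0.06), Mx2 (-0.34 ± 0.06) and Parp14 (-0.29 ± 0.06) were among the lower ones, and Stat2 (-0.23 ± 0.05) was lower as well. In GM cells after LPS, the dish differences of the 28 lay between -0.21 and 0.20 with a median of -0.08. In M cells at steady state, 9 of the 28 were higher on noTC and 3 lower with TMM, and 5 and 4 after the subtraction. Over all genes 16.1% were called higher and 11.1% lower before it. For dish by LPS in M, 10 of the 28 had a smaller response on noTC and 0 a larger one with TMM. Over all genes 7.48% were smaller and 3.11% larger.

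Across the 16 libraries, members and other genes were compared by the root mean square difference of their gene-centred log2 CPM, in which a small value means a like pattern. Cmpk2, a nucleotide kinase, was the non-member most like Ifit1 (0.371) and Ifit1bl1 (0.467), followed for Ifit1 by Oasl1 (0.444) and Rsad2 (0.528), the gene of viperin. For Ifit1bl1 the next were Mx2 (0.541) and Trim30c (0.557). Ifit2 was nearest to Tgtp2 (0.540), Isg15 (0.563) and Ifi208 (0.564). Ifi208 was also nearest to Ifit3 (0.306) and Ifit3b (0.512), with Ms4a4c next for both (0.393 and 0.579) and then Sdc4 (0.400) for Ifit3 and Tgtp2 (0.624) for Ifit3b. Within the family, Ifit3 and Ifit3b were the closest pair (0.298), as near copies whose reads were divided between them, and Ifit1 and Ifit1bl1 followed (0.384). Ifit1 and Ifit3 were the farthest apart (1.10). The step between vehicle and LPS enters every one of these values.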

How the data were processed

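RNA-seq was made of 16 BMDM libraries in 8 groups of 2, named by the sample labels. Per the methods and the submitters' notes, the authors filtered reads with fastp 0.18.0, aligned them with HISAT2 and quantified genes with RSEM, and the notes also name Bowtie2 2.2.8 and StringTie 1.3.1. The genome build and strandedness are not given in the sources used here. Values deposited by the authors are RSEM expected counts per gene, not normalized, and were rounded here. Total counts of 17527802 to 31458363 limit precision, and the floor of 3 counts covers counting error only.

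Genes were filtered with edgeR's filterByExpr by group, leaving 12514 of 16756 with a count, and scaled by TMM. One quasi-likelihood fit over all 16 libraries (edgeR 4.0.16, R 4.3.3, no replicate block) gave 12 comparisons and 6 interactions, and p-values were Benjamini-Hochberg (BH) adjusted over all tested genes. Log2 fold changes carry an SE taken as the size of the log2 fold change divided by the square root of the F statistic. This is not a direct error of the estimate, and it is too small where a large fold rests on low counts. The common dispersion of the fit was 0.00226. An exact permutation test of 2 against 2 libraries cannot go below a two-sided p of 0.333, so none was used. The test was checked on simulated counts.

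Members and lists were chosen with earlier results of these data known. Named genes were the members, 47 of 48 listed interferon pathway genes found in the table, Ifit1bl2 as the further IFIT gene, and the 3 non-members most like each member. A further pathway gene is not reported here. Positions, exon lengths and transcripts are from GENCODE M21 and promoter windows from RefSeq, matched by identifier and symbol for all 5 members. Tried besides were edgeR with DESeq2's size factors or with library size alone, no filter, DESeq2 1.42.0, only the libraries of a comparison, a replicate block, each library left out, Ifit3 and Ifit3b summed, and the subtraction of a fixed share of other libraries from noTC steady state libraries. The share was 0.668% for GM (13 genes) and 0.600% for M (19 genes).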

Additional observations from a re-analysis of the deposited data

Results flagged for a closer look

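Each result here is a difference between 2 log2 effects that passed edgeR's test of the difference itself, given relative to the effect named second. The LPS response of GM cells on noTC dishes against that on TC dishes differed by -2.13 for Ifit1, -1.63 for Ifit2, -1.38 for Ifit3 and -2.13 for Ifit3b. None of these passed after the subtraction of a share of the other libraries, an outcome largely fixed by the size of that share. The same difference in M cells was 0.31 for Ifit2, 0.26 for Ifit3, 0.73 for Ifit3b and 1.11 for Ifit1bl1.

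The LPS response in GM against M cells differed on TC dishes by 4.03 for Ifit1, 3.71 for Ifit2, 3.71 for Ifit3, 5.03 for Ifit3b and 3.66 for Ifit1bl1. On noTC dishes it differed by 1.82 for Ifit1, 1.77 for Ifit2, 2.06 for Ifit3, 2.17 for Ifit3b and 1.36 for Ifit1bl1. The dish difference of GM against M cells at steady state was 2.17 for Ifit1, 1.64 for Ifit2, 1.43 for Ifit3, 2.64 for Ifit3b and 2.03 for Ifit1bl1, and 1 of the 5 passed after the subtraction. After LPS it was -0.30 for Ifit2, which was not called after the subtraction, with DESeq2, with DESeq2's size factors or in 7 of the 8 fits without 1 library. The causes of these differences were not tested.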

How the results depend on the processing

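The 5 calls for LPS in each of the 4 cultures, for GM against M in each of the 4 states and for GM against M in the LPS response on both dishes were also 5 under every alternative tried. Subtracting a share of the other libraries moved the calls for the dish in GM cells at steady state from 5 to 0, in M cells from 2 to 4, for dish by LPS in GM from 4 to 0, for growth factor by dish after LPS from 1 to 0 and at steady state from 5 to 1. The source of that share was not tested. The share is near the members' own excess in GM and lowers only noTC vehicle libraries. Apart from growth factor by dish after LPS, the direction of these moves was therefore fixed beforehand. The subtraction turned Ifit2 in GM cells at steady state to -0.012 and Ifit1bl1 in dish by LPS in GM to 0.38 (adjusted p = 0.98 and 0.9, edgeR). For the dish in GM cells after LPS, 2 members were called with no filter and 2 with the libraries of the comparison alone. For growth factor by dish after LPS the calls were 0 with DESeq2's size factors, 4 with library size alone, 2 with no filter, 0 with DESeq2 and 3 with the libraries of the comparison alone; the cause was not tested.

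With 1 library left out, the lone library of its group is assumed to vary like the other groups. The calls then lay between 0 and 2 for the dish in M cells at steady state, 2 and 4 for dish by LPS in M, and 0 and 4 for growth factor by dish after LPS, where 4 came without M-TC-LPS replicate 2. The other values that turned were near 0. Ifit1 for the dish in M cells after LPS was -0.0159 with DESeq2's size factors, -0.0159 with DESeq2 and between -0.0239 and 0.0365 with 1 library left out. Ifit1 for the dish in GM cells after LPS lay between -0.0699 and 0.00639, and for growth factor by dish after LPS between -0.0757 and 0.000977, with 1 library left out. Ifit3 summed with Ifit3b was 0.0137 for the dish in GM cells after LPS.

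Library size alone moved the median of all genes to -0.53 in GM-TC and -0.83 in M-TC for LPS, with 2149 genes higher and 7841 lower in GM-TC against 4103 and 4282 with TMM, and left all 5 members higher. The M dish comparison after LPS went from 1298 higher and 1619 lower to 2102 and 880, GM-TC against M-TC from 4078 and 3619 to 2458 and 6363, and growth factor by LPS on TC dishes from 2225 and 2920 to 4899 and 1307, with 4 members called in the first, where Ifit2 was added (0.21, adjusted p = 0.018), and all 5 in both others. Of the values of single members under an alternative, 1070 kept their direction and their side of the threshold, 46 lost and 21 gained a call, and 9 turned. Replicate numbers did not pair the libraries, as deviations of same-numbered libraries correlated between -0.064 and 0.020; with the replicate block the 18 counts stayed within 1.5 times, and 1 call was gained, Ifit1bl1 for the dish in M cells at steady state (-0.34, adjusted p = 0.048). Ifit3b and Ifit1bl1 in GM-TC had 4 to 10 counts, so their fold changes there have the widest errors.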
